A study of Mus musculus with 6 samples.

Results

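The miR-143 and miR-145 entries are the mature miRNAs cut from the Mir143, Mir145a and Mir145b hairpins of the mouse. They were taken by name from the table of mature miRNAs, which gave 5 of 1081 entries: mmu-miR-143-3p, mmu-miR-143-5p, mmu-miR-145a-5p, mmu-miR-145a-3p and mmu-miR-145b, written without the species prefix below. The libraries, 3 from DicerAQP2Cre+ mice and 3 from control mice, hold small RNA of the renal inner medulla, whose tip is the papilla, and all mice were 1 month old. DicerAQP2Cre+ mice lack Dicer1, the RNase III enzyme that cuts most miRNA hairpins, in cells that express aquaporin-2, which principal cells of the collecting duct insert into their membrane as a water channel. The series design counts separate mice in each group, and the labels give no further allele, strain or agent, nor whether controls carried the Cre or floxed alleles. The tissue was not sorted, so each library held collecting ducts together with vessels, interstitium and other cells. The columns of the DicerAQP2Cre+ libraries were identified by reading CK as conditional knockout, and every direction given here rests on that reading.

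miR-143 and miR-145 are known as smooth muscle miRNAs. Their hairpins are cut from a shared primary transcript that serum response factor and its co-activator myocardin switch on in vascular smooth muscle and in pericytes, and their targets include Klf4, Klf5 and Elk1, which oppose the contractile state. In RefSeq's GRCm38 annotation Mir143 and Mir145a both lie inside the long non-coding RNA gene Carmn, and Mir145b does not. The smooth muscle of the kidney lies in arteries, arterioles and the wall of the renal pelvis, and pericytes line the vasa recta of the medulla. None of these cells is a recognised site of aquaporin-2 expression.

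Values are reads assigned to a mature miRNA divided by the size factor of the library, called normalized reads here. Libraries held between 2934851 and 7614853 recovered reads, and a library with no read of an entry would allow up to 3 reads, or 2.22 to 5.88 normalized reads. miR-181a-5p, the most abundant entry, took 63.9, 66.8 and 58.2% of reads in DicerAQP2Cre+ replicates 1 to 3 and 52.8, 47.8 and 43.3% in control replicates 1 to 3. The first principal component of log2 values held 46.1% of the variance. DicerAQP2Cre+ replicates 1 to 3 scored -7.84, -12.5 and -2.33 on it, and control replicates 1 to 3 scored 7.70, 7.90 and 7.10. DicerAQP2Cre+ replicate 3 was thus the nearest of its genotype to the controls. On the second component, an axis holding 23.1% of the variance, DicerAQP2Cre+ replicate 3 was distant from every other library, with a score of -12.5. Epithelial miRNAs were present in both genotypes, with miR-200b-3p at 4236 ± 1625 normalized reads in DicerAQP2Cre+ and 8698 ± 172 in controls (SD, n = 3 each). The Dicer1 transcript is not read by small RNA libraries, so its loss was not checked. Results on the cluster in which DicerAQP2Cre+ replicate 3 differed from the others of its genotype are given with and without it below.

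miR-145a-5p rose in DicerAQP2Cre+ inner medulla, and the other 3 tested arms did not pass. The test took entries with a mean of at least 5 normalized reads, which were both arms of miR-143 and of miR-145a. All 4 had higher means in DicerAQP2Cre+ libraries. Calls were made with limma on log2(value + 1) over all 461 tested entries, at 0.05 after Benjamini-Hochberg adjustment. In that fit 8.46% of entries were called in either direction and 3.47% were called higher, which is the background to the 1 call among 4 arms.

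miR-145a-5p is the leading arm of the miR-145a hairpin, the strand that is mostly kept as the guide. It stood at 4764, 4070.1 and 3238 normalized reads in DicerAQP2Cre+ replicates 1 to 3, against 2550.2, 1769 and 1456 in control replicates 1 to 3. Every DicerAQP2Cre+ library lay above every control library, with DicerAQP2Cre+ replicate 3 and control replicate 1 facing each other across the gap. Groups failed to overlap in 33.6% of all tested entries, and with DicerAQP2Cre+ higher in 15.6%. The means were 4024 ± 764 in DicerAQP2Cre+ and 1925 ± 564 in controls (SD, n = 3 each), a ratio of 2.09. The log2 fold change on the log2(value + 1) scale was 1.09 ± 0.25 (SE), with a 95% interval of 0.53 to 1.64 and a limma adjusted p of 0.0196.

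The size of that change held better than its call. The limma adjusted p was 0.0543 without DicerAQP2Cre+ replicate 1, 0.0833 without DicerAQP2Cre+ replicate 2, 0.105 without control replicate 2, 0.106 without control replicate 3 and 0.0760 without a mean-variance trend, all above the threshold. It was 0.00152 without DicerAQP2Cre+ replicate 3 and 0.0435 without control replicate 1. Leaving out a library gave log2 fold changes from 0.90 to 1.31. On recovered reads, edgeR gave 1.13 with an adjusted p of 0.0173 and DESeq2 gave 1.10 with an adjusted p of 0.00162. Calls over all 461 tested entries moved as well. limma called 39 with the main setting, 41 without DicerAQP2Cre+ replicate 1, 15 without DicerAQP2Cre+ replicate 2 and 105 without DicerAQP2Cre+ replicate 3. It called 26 without control replicate 1, 0 without control replicate 2, 0 without control replicate 3 and 18 without a trend. On recovered reads edgeR called 42 and DESeq2 called 60.

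**Figure D1:**
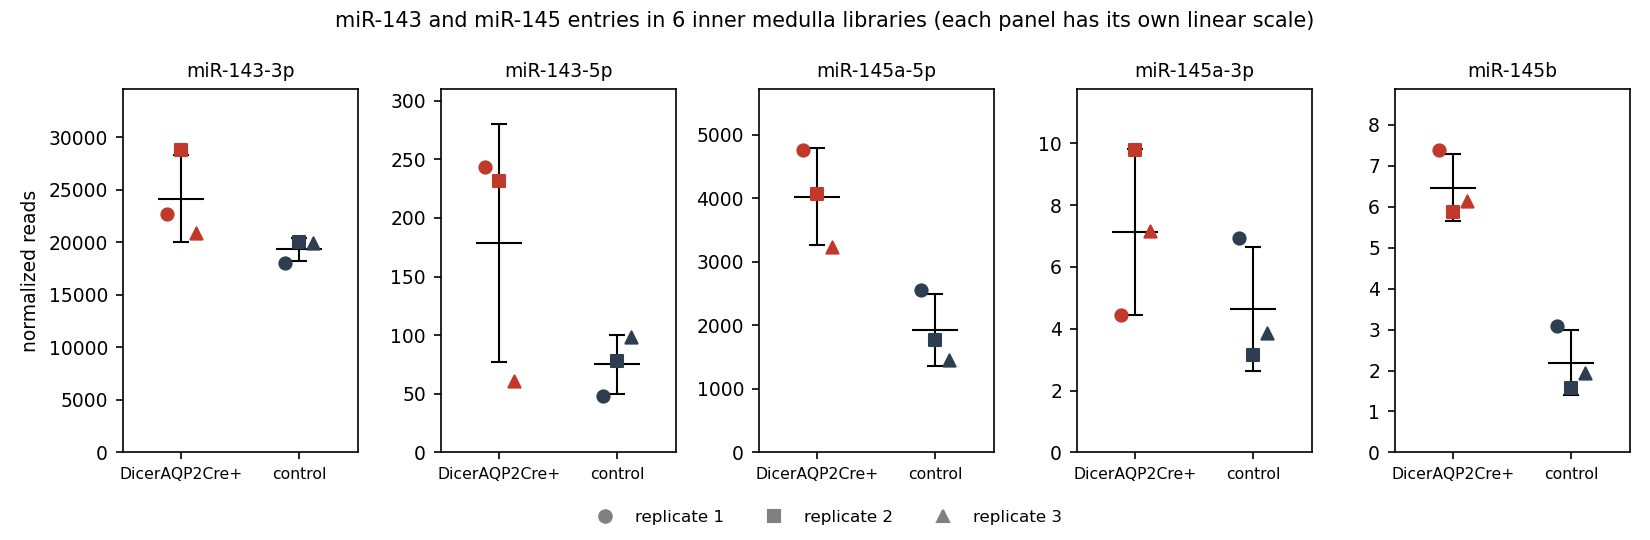
Normalized reads of the 5 miR-143 and miR-145 entries (vertical axes, linear, each from 0) by genotype. Points are libraries, with the symbol showing the replicate number, and the black bar and whiskers are the mean ± SD of 3 libraries. The groups are separate for miR-143-3p, miR-145a-5p and miR-145b and overlap for miR-143-5p and miR-145a-3p. Groups failed to overlap in 33.6% of the 461 tested entries, which do not include miR-145b.

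miR-143-3p, the leading arm of the miR-143 hairpin and the most abundant of the 5, did not pass. It had 22724, 28838 and 20899 normalized reads in DicerAQP2Cre+ replicates 1 to 3, against 18042, 20001 and 19940.1 in control replicates 1 to 3. The libraries of the genotypes did not overlap, as in 33.6% of all tested entries, but DicerAQP2Cre+ replicate 3 lay close above the highest control. Means were 24153 ± 4158 in DicerAQP2Cre+ and 19328 ± 1114 in controls (SD, n = 3 each), a ratio of 1.25. The log2 fold change was 0.31 ± 0.19 with a 95% interval of -0.11 to 0.73 and a limma adjusted p of 0.315, so these libraries give no call for an increase and do not show that the level was equal. Without DicerAQP2Cre+ replicate 3 it was 0.41 ± 0.17 (limma adjusted p = 0.102), the highest value from leaving out a library. The lowest was 0.17 ± 0.21 (limma adjusted p = 0.648), without DicerAQP2Cre+ replicate 2, the library with the most miR-143-3p. Part of the difference thus rested on that library. By mean level it ranked 26 of 1081 entries, against 67 for miR-145a-5p, 199 for miR-143-5p, 443 for miR-145a-3p and 475 for miR-145b. Adapter ligation favours some miRNA ends over others, so ranks between miRNAs are approximate.

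miR-143-5p is the minor arm of the miR-143 hairpin, usually the discarded strand. It stood at 243, 231 and 61.3 normalized reads in DicerAQP2Cre+ replicates 1 to 3, against 48.5, 77.8 and 98.7 in control replicates 1 to 3. DicerAQP2Cre+ replicates 1 and 2 were above every control, whereas DicerAQP2Cre+ replicate 3 lay within the control range. Means were 179 ± 102 in DicerAQP2Cre+ and 75.0 ± 25.3 in controls (SD, n = 3 each), and the log2 fold change of 1.06 ± 0.49 did not pass (limma adjusted p = 0.193, 95% interval -0.03 to 2.16). This value turned on DicerAQP2Cre+ replicate 3. Without it the log2 fold change was 1.71 ± 0.30 with a limma adjusted p of 0.00127, in a fit that called 9.33% of entries higher. With all libraries DESeq2 also called it (1.29, adjusted p = 0.0453, 6.29% of entries called higher), and edgeR did not (1.33, adjusted p = 0.0959).

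miR-145a-3p, the minor arm of the miR-145a hairpin, was close to the counting floor. It had 6, 5 and 7 reads in DicerAQP2Cre+ replicates 1 to 3 and 9, 4 and 4 reads in control replicates 1 to 3. These are 4.44, 9.80 and 7.15 normalized reads in DicerAQP2Cre+ libraries, against 6.92, 3.14 and 3.87 in control libraries. The groups overlapped, and the log2 fold change of 0.53 ± 0.50 (limma adjusted p = 0.537) leaves no difference detectable at this depth. miR-145b, the paralogue from a separate hairpin, was below the filter on low values and was not tested with the others. It had 10, 3 and 6 reads in DicerAQP2Cre+ replicates 1 to 3, against 4, 2 and 2 reads in control replicates 1 to 3, or means of 6.47 ± 0.814 in DicerAQP2Cre+ and 2.19 ± 0.785 normalized reads in controls (SD, n = 3 each). The groups did not overlap, yet with no filter the limma adjusted p was 0.371 (log2 fold change 1.25 ± 0.66). The share of entries below the filter whose groups separate was not counted. How reads that match both miR-145a and miR-145b were assigned is not given in the sources used here, so the small miR-145b counts are uncertain.

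**Figure D2:**
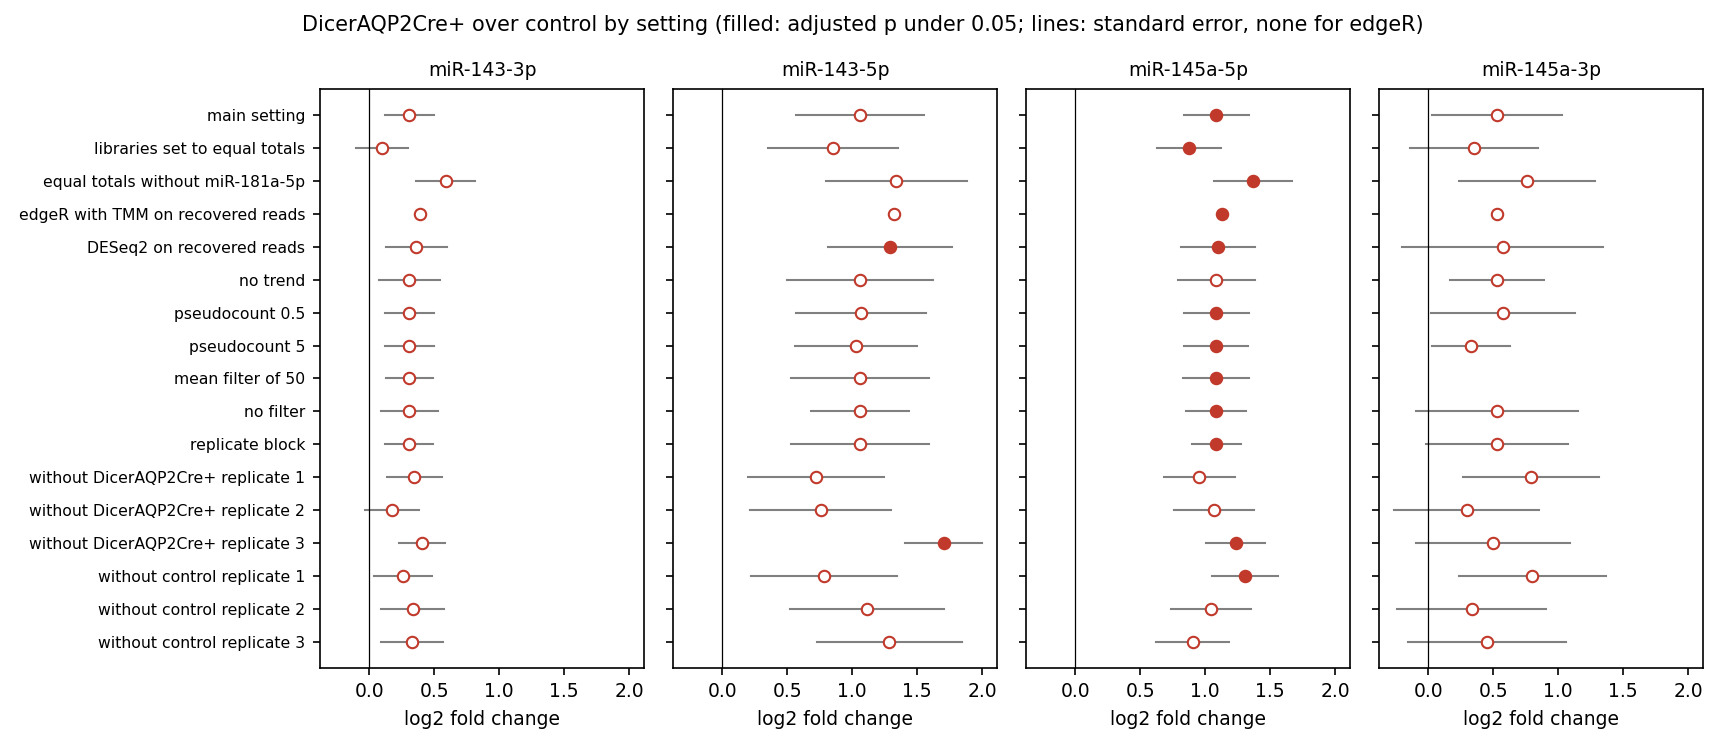
Log2 fold change of DicerAQP2Cre+ over control (horizontal axis) for the 4 tested entries under each setting (rows), with the standard error as a line where the tool gives it. Filled points passed an adjusted p of 0.05: miR-145a-5p in most rows, and miR-143-5p with DESeq2 and without DicerAQP2Cre+ replicate 3. No point lies below 0.

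All fold changes above depend on how libraries are scaled, because miR-181a-5p took so many reads. With libraries set to equal totals the median log2 fold change of all tested entries was -0.21, against -0.01 with the deposited size factors, and with equal totals of everything other than miR-181a-5p it was 0.25. miR-145a-5p was called under each of these scalings, with log2 fold changes of 0.87 and 1.37 under the alternatives. Of 461 tested entries, limma called 14 higher with equal totals and 36 higher with equal totals without miR-181a-5p, against 16 with the deposited size factors. miR-143-3p had log2 fold changes of 0.10 with equal totals and 0.59 with equal totals without miR-181a-5p, against 0.31 with the deposited size factors, and was called in none of the 3. Rescaling moves all entries almost alike, so the distance from the median of all entries hardly changes by construction. It was 1.10 for miR-145a-5p and 0.32 for miR-143-3p with the deposited size factors.

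Ratios inside a library do not depend on scaling. The balance of the leading arms of the cluster leaned toward miR-145a-5p in DicerAQP2Cre+ libraries, but by less than the spread between libraries allows to be called. There were 4.77, 7.09 and 6.46 reads of miR-143-3p for each read of miR-145a-5p in DicerAQP2Cre+ replicates 1 to 3, against 7.07, 11.3 and 13.7 in control replicates 1 to 3. DicerAQP2Cre+ replicate 2 and control replicate 1 had almost the same ratio, and the genotypes overlapped there. The mean log2 ratio of miR-145a-5p to miR-143-3p was -2.59 ± 0.30 in DicerAQP2Cre+ and -3.37 ± 0.49 in controls (SD, n = 3 each), a difference of 0.78. The exact two-sided permutation p was 0.2, where 3 against 3 cannot go below 0.1.

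The same shift appears as the share of the cluster's reads that came from the miR-145a hairpin. This share was 17.2, 12.3 and 13.4% in DicerAQP2Cre+ replicates 1 to 3, against 12.4, 8.11 and 6.79% in control replicates 1 to 3. The widest 95% exact binomial interval among the 6 libraries was 11.8 to 12.8%, in DicerAQP2Cre+ replicate 2, and these intervals cover counting error only. The spread between libraries of each genotype was thus far wider than counting error.

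The pair was set against other neighbouring hairpins. Over 34 pairs of consecutive hairpins on the same strand within 10 kb, the log2 ratio of the downstream to the upstream leading arm was fitted with limma. The ratio of miR-145a-5p to miR-143-3p changed by 0.78 ± 0.35 (unadjusted p = 0.0566, limma adjusted p = 0.321), the third largest of the 34 in size, where the median absolute change was 0.29. That rank was not stable, and it moved both ways. Larger changes were held by 10 pairs without DicerAQP2Cre+ replicate 1, 8 without control replicate 3, and 19 of 81 pairs with no filter. They were held by 0 pairs without DicerAQP2Cre+ replicate 2, 0 without control replicate 1, and 1 of 21 pairs with a mean filter of 50. limma called 0 of 34 pairs, or 0%, and 3 had an unadjusted p under 0.05, with no other tool run on these ratios. Without control replicate 1, the control with the highest miR-145a-5p, the change was 1.05, and without control replicate 3 it was 0.57. Neighbouring pairs can share a hairpin, so they are not independent of each other.

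**Figure D3:**
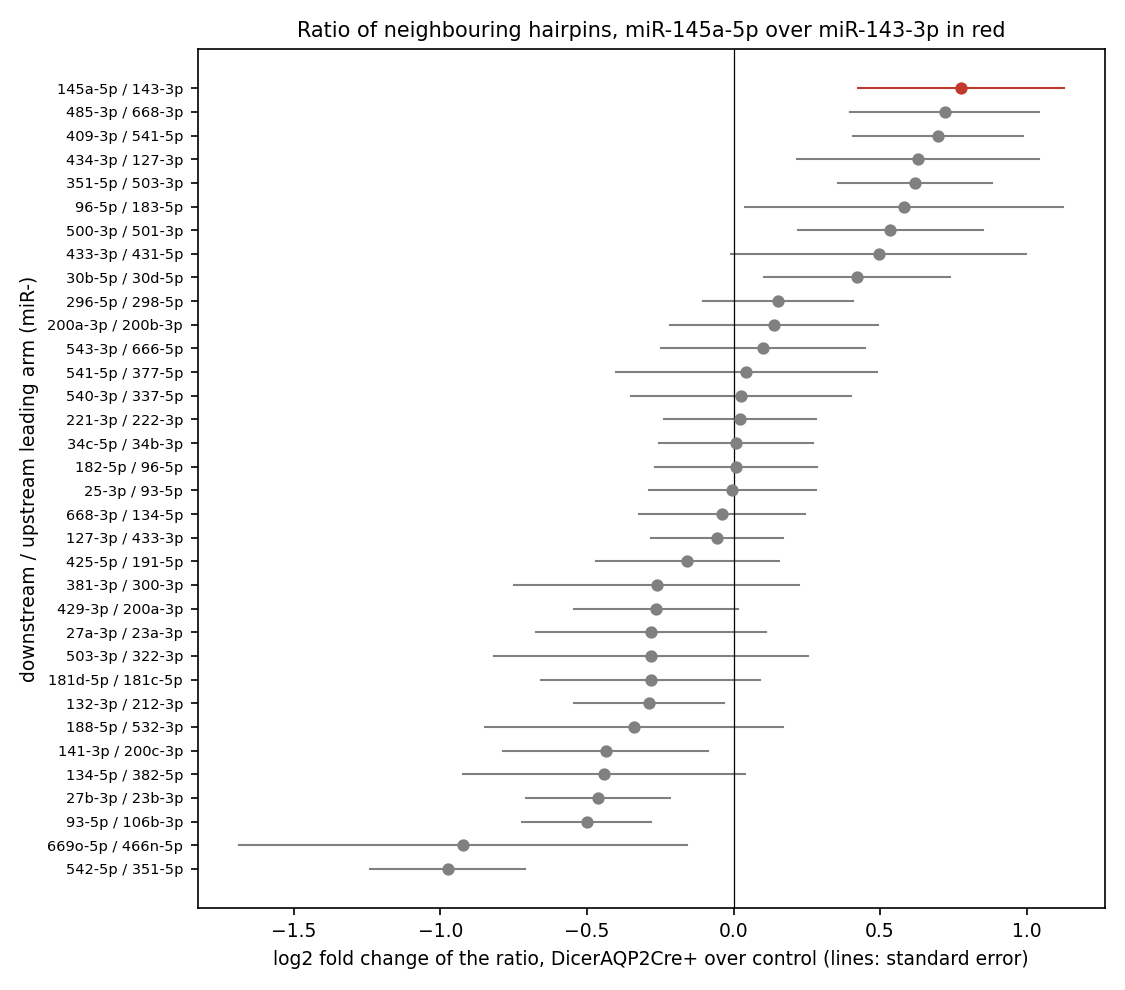
Change in the ratio of neighbouring hairpins (horizontal axis, log2 fold change, DicerAQP2Cre+ over control, line = standard error) for 34 pairs within 10 kb (vertical axis). The pair of miR-145a-5p and miR-143-3p, in red at 0.78, has the highest positive value, and 2 pairs have larger negative values.

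The arms of each hairpin were compared in the same way. miR-143-5p made up 1.06, 0.795 and 0.292% of miR-143 hairpin reads in DicerAQP2Cre+ replicates 1 to 3, against 0.268, 0.388 and 0.493% in control replicates 1 to 3. The first 2 DicerAQP2Cre+ replicates had higher shares than any control, with exact binomial intervals of 0.949 to 1.18% and 0.659 to 0.952% that lie above the upper limit of 0.598% of the highest control. DicerAQP2Cre+ replicate 3 lay between the lowest 2 controls. Over the genotypes the log2 ratio of the 5p to the 3p arm of miR-143 differed by 0.75 ± 0.55 and was not called (limma adjusted p = 0.572, 112 hairpins, of which 3.57% were called). Without DicerAQP2Cre+ replicate 3 it differed by 1.30 and was not called either (limma adjusted p = 0.174).

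For miR-145a the 3p arm was 0.0931, 0.240 and 0.220% of hairpin reads in DicerAQP2Cre+ replicates 1 to 3, against 0.271, 0.177 and 0.265% in control replicates 1 to 3. The groups overlapped, and the intervals were wide because the arm had fewer than 10 reads in every library. The log2 ratio of the 5p to the 3p arm differed by 0.56 ± 0.46 (limma adjusted p = 0.572). In both genotypes the leading arm was thus 3p for miR-143 and 5p for miR-145a.

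As a whole, the 4 arms of the cluster took 0.492, 0.576 and 0.416% of all reads in DicerAQP2Cre+ replicates 1 to 3, against 0.396, 0.448 and 0.451% in control replicates 1 to 3. The groups overlapped, with means of 0.495 ± 0.0802% in DicerAQP2Cre+ and 0.432 ± 0.0310% in controls (SD, n = 3 each, exact two-sided permutation p = 0.3). Without DicerAQP2Cre+ replicate 3 the mean of that genotype was 0.534%, 0.103 percentage points above controls. The exact two-sided permutation p was then 0.2, the smallest that 2 against 3 allows, so it cannot be set against the 0.3. Without DicerAQP2Cre+ replicate 2 the mean was 0.454%, only 0.0225 percentage points above controls (exact two-sided permutation p = 0.6). As a share of reads other than those of miR-181a-5p, the cluster took 1.36, 1.74 and 0.996% in DicerAQP2Cre+ libraries, against 0.839, 0.858 and 0.796% in control libraries. Here the groups did not overlap (exact two-sided permutation p = 0.1, the smallest that 3 against 3 allows). Leaving out miR-181a-5p shifts entries upward in DicerAQP2Cre+ in general. With equal totals without it, the median log2 fold change of all tested entries was 0.25. At an unadjusted limma p under 0.05, 101 entries were then higher and 38 lower. The share of all entries whose groups separate on this scale was not counted. In bulk tissue, a change in the number of cells that make the cluster and a change in its level per cell cannot be told apart.

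**Figure D4:**
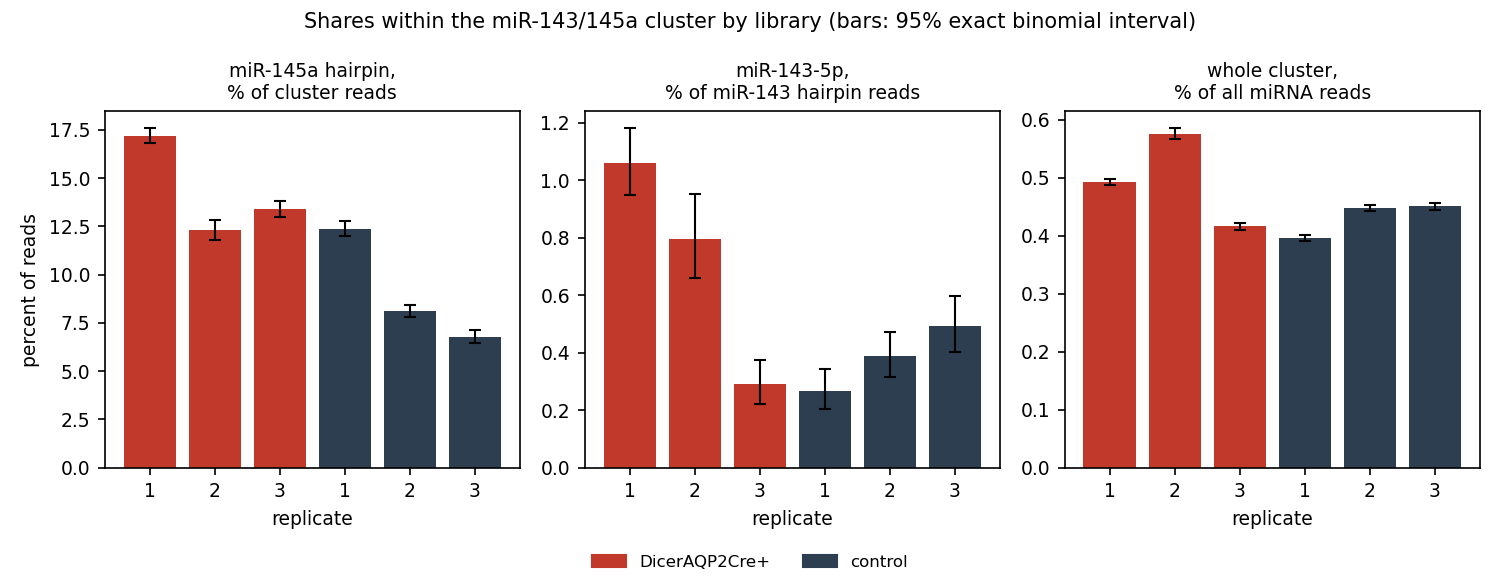
Percent of reads by library (vertical axes, from 0) for the miR-145a hairpin within the cluster, miR-143-5p within its hairpin and the whole cluster within all miRNA reads. Bars are libraries, with DicerAQP2Cre+ in red and control in dark blue, and error bars are 95% exact binomial intervals. The genotypes overlap at 12.3% and 12.4% in the left panel, and DicerAQP2Cre+ replicate 3 sits among the controls in the other panels.

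Within a genotype the members did not keep a common order. Among the DicerAQP2Cre+ libraries, replicate 3 had the lowest miR-143-3p, miR-143-5p and miR-145a-5p, while replicate 2 was highest for miR-143-3p and replicate 1 for miR-145a-5p. Among controls, replicate 1 had the highest miR-145a-5p but the lowest miR-143-3p and miR-143-5p. The coefficient of variation of miR-143-3p was 17.2% in DicerAQP2Cre+ and 5.76% in controls, and that of miR-145a-5p was 19.0% in DicerAQP2Cre+ and 29.3% in controls.

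Profiles over the 6 libraries were compared by the root mean square difference of centred log2(value + 1) values, among 256 entries outside the cluster with a mean of at least 50. Nearest to miR-145a-5p were miR-193b-3p (0.13 on the log2 scale), miR-674-5p (0.18), miR-676-3p (0.19), miR-375-3p (0.24) and miR-132-3p (0.24). miR-143-3p was farther, at 0.51, and 53 of the 256 entries lay nearer to miR-145a-5p than it did. The mature sequences of 4 of these neighbours, from RefSeq's GRCm38.p6 annotation, are shown to compare their seeds, bases 2 to 8, in capitals:
miR-193b-3p: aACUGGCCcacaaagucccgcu
miR-674-5p: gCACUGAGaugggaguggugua
miR-676-3p: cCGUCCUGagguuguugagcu
miR-132-3p: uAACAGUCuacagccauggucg

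Among these 4 no seed was shared. miR-193b-3p had 459, 327 and 239 normalized reads in DicerAQP2Cre+ replicates 1 to 3, against 225, 157 and 115 in control replicates 1 to 3. It ran in the same order of libraries as miR-145a-5p within each genotype, which its choice as the nearest profile favours. miR-193b-3p did not pass (limma log2 fold change 1.04 ± 0.32, adjusted p = 0.0702). The other 4 passed, which follows in part from their choice, since profiles near to miR-145a-5p carry its genotype difference. miR-674-5p rose by 1.05 ± 0.23, miR-676-3p by 0.98 ± 0.19, miR-375-3p, known from pancreatic islets and other secretory cells, by 0.84 ± 0.22, and miR-132-3p, which CREB induces in neurons, by 1.22 ± 0.26 on the log2 scale.

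Nearest to miR-143-3p were miR-106b-3p (0.12), let-7c-5p (0.12), miR-671-5p (0.13), miR-99b-3p (0.13) and miR-744-5p (0.13). Their log2 fold changes ran from 0.33 to 0.41, and none of the 5 passed, with limma adjusted p values from 0.192 to 0.328. The likeness of a profile is a description over 6 libraries that share genotype and scaling.

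Among other miRNAs known from pericytes and fibroblasts, miR-214-3p rose and the rest did not pass. That list had 10 names outside the cluster, found as 9 entries, of which 8 were tested, 1 rose, 0 fell and 5 had a log2 fold change above 0. Over all tested entries 3.47% were called higher. Its median was 0.39, against -0.01 over all tested entries, of which 228 of 461 lay above 0, and 0.79 over the 4 cluster arms. miR-214-3p, cut from the Dnm3os transcript with miR-199a, had 3941, 3200.0 and 1155 normalized reads in DicerAQP2Cre+ replicates 1 to 3, against 551, 735 and 422 in control replicates 1 to 3. Groups were separate, DicerAQP2Cre+ replicate 3 again being the nearest to the controls, and the log2 fold change was 2.14 ± 0.41 (limma adjusted p = 0.0148).

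The joined entry of miR-199a-3p and miR-199b-3p, whose reads the table does not split, had 3658, 3514 and 2207 normalized reads in DicerAQP2Cre+ replicates 1 to 3, against 1995, 1826 and 1794 in control replicates 1 to 3. Its groups did not overlap, and its log2 fold change of 0.71 ± 0.23 did not pass (limma adjusted p = 0.0915). Such separation was seen in 33.6% of all tested entries. miR-152-3p of the same list was separate in the other direction, at -0.73 ± 0.24 (limma adjusted p = 0.0915). So was miR-140-3p, the most abundant entry of the list, at -0.42 ± 0.18 (limma adjusted p = 0.155). The summed list ran from 6734 to 11437 normalized reads in DicerAQP2Cre+ and from 6892 to 7262 in control libraries. The groups overlapped, and none of its 9 entries was at 0 in all libraries. The part of pericytes and fibroblasts in the change of miR-145a-5p was not tested.

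The 14 miRNAs described as regulators of smooth muscle phenotype, of which 13 were tested, showed no common direction. miR-26a-5p, the most abundant, fell to 89879 ± 6264 normalized reads in DicerAQP2Cre+, against 143584 ± 9055 in controls (SD, n = 3 each, log2 fold change -0.68 ± 0.17, limma adjusted p = 0.0272), and 0 rose. Of the 13, 7 had a log2 fold change above 0, and the median was 0.16. Summed levels were 203011 to 237930.0 normalized reads in DicerAQP2Cre+ and 273010.0 to 310722 in controls, without overlap. Their means were 224377 in DicerAQP2Cre+ and 296111 in controls, and most of that difference came from miR-26a-5p. The sum therefore follows the most abundant entries and does not describe the list as a group. miR-221-3p and miR-222-3p, known to favour smooth muscle growth, gave 0.39 ± 0.23 and 0.37 ± 0.19 on the log2 scale. Neither was past the threshold (limma adjusted p = 0.306 and 0.233), and the list was not divided by effect on growth.

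None of the tested striated muscle, endothelial, leukocyte or erythroid entries passed. Of 8 striated muscle names 3 were found and 1 was tested, miR-133a-3p, at 39.5 ± 13.0 normalized reads in DicerAQP2Cre+ and 42.9 ± 8.66 in controls (SD, n = 3 each, limma adjusted p = 0.796). The 2 endothelial entries, both arms of miR-126a, had a median of -0.20 and summed levels of 830.0 to 1245 normalized reads in DicerAQP2Cre+ and 961 to 1229 in control libraries. The 5 tested leukocyte entries had a median of 0.34, with summed levels of 17098 to 39960.2 in DicerAQP2Cre+ and 13417 to 36700.4 in controls. The 2 tested erythroid entries had a median of -0.38, with summed levels of 66039 to 98718 in DicerAQP2Cre+ and 84625 to 147223 in controls, so that both sums overlapped between genotypes. The erythroid sum was almost all the joined entry of miR-486a-5p and miR-486b-5p, so it does not describe that list as a group. This entry had 81120.5 ± 16475 in DicerAQP2Cre+ and 108634 ± 33727 in controls (SD, n = 3 each). The leukocyte sum was mostly miR-150-5p, at 24469 ± 11933 in DicerAQP2Cre+ and 20281 ± 12940.0 in controls (SD, n = 3 each). miR-155-5p, a miRNA of activated leukocytes, differed the other way, with 220.0 ± 162 in DicerAQP2Cre+ and 518 ± 44.5 in controls. Its groups did not overlap, as in 33.6% of all tested entries, and its log2 fold change of -1.47 ± 0.41 was just short of a call (limma adjusted p = 0.0512). Of the 5 tested leukocyte entries, 4 had a log2 fold change above 0. It was 1.17 ± 0.53 for miR-223-3p, whose groups overlapped, and 0.58 ± 0.23 for miR-342-3p, whose groups did not (limma adjusted p = 0.185 and 0.130).

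The epithelial list, miR-200 family members with miR-192, miR-194 and miR-205, had 6 of 8 entries called lower and 0 called higher, where 4.99% of all tested entries were called lower, and its median was -1.03. The miR-200 family entries come from neighbouring hairpins, so their calls are not independent of each other. miR-205-5p, its most abundant entry, did not pass (0.42 ± 0.26, limma adjusted p = 0.318). The list's summed level was 21792 to 38919 normalized reads in DicerAQP2Cre+ and 31316 to 33184 in controls. The 6 called entries, known from kidney epithelium, thus differed in the direction opposite to miR-145a-5p in the same libraries. What part a different mix of cells had in either change was not tested.

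**Figure D5:**
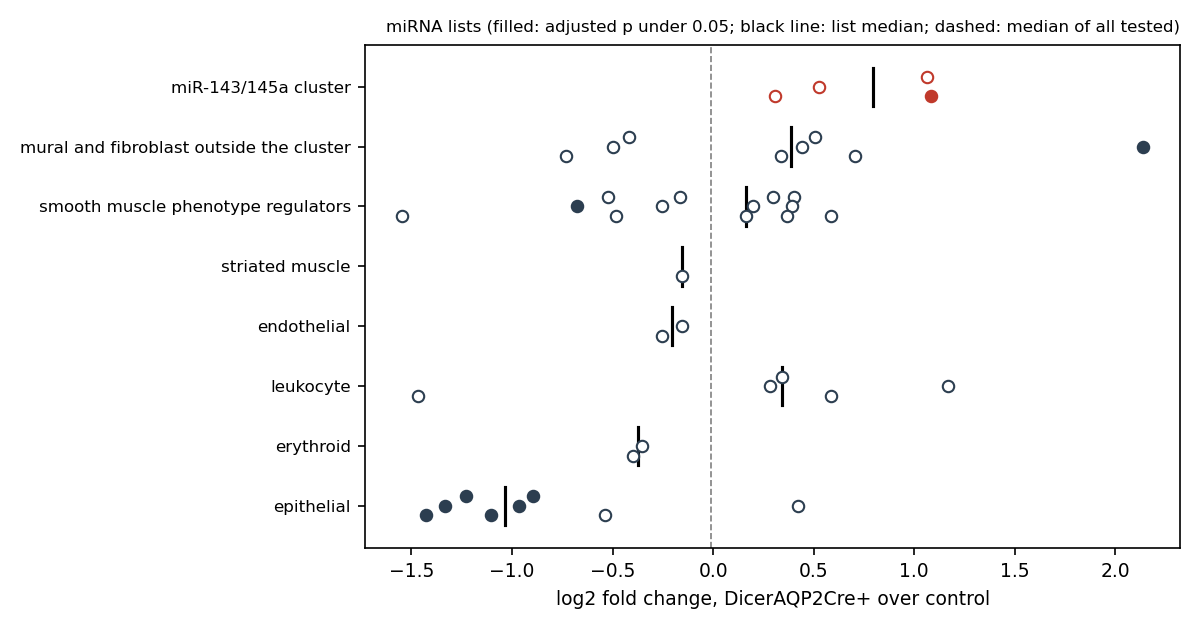
Log2 fold change of DicerAQP2Cre+ over control (horizontal axis) of each tested entry by list (vertical axis). Filled points passed an adjusted p of 0.05, the black line is the median of the list and the dashed line the median of all 461 tested entries, at -0.01. The 4 cluster arms lie between 0.31 and 1.09, and 6 of 8 epithelial entries are filled below 0.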

How the data were processed

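Small RNA of the kidney inner medulla was sequenced in 3 DicerAQP2Cre+ and 3 control libraries made with a TruSeq small-RNA protocol, per the labels' protocols. In the deposited table the unit is a signal: reads of each mature miRNA over a size factor of the library. This was inferred from the values, 100% of which were whole reads to within 0.01 read. Per the submitters' processing notes, mm9, DESeq2 and FastQC 0.11.3 were used. Aligner, counter and miRNA release: not given in the sources used here. Annotation was GRCm38, used for names and neighbours, and no coordinates are printed. Mature sequences of the miR-143 and miR-145 entries are not reported here.

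limma 3.58.1 (R 4.3.3) was fitted with a mean-variance trend, without a replicate block, to log2(value + 1) of 461 entries with a mean of at least 5; 620 were below it. edgeR 4.0.16 and DESeq2 1.42.0 were run on recovered reads. The limma scripts were run on simulated data that were scaled by depth and held no outlying library. That run does not test the deposited size factors or the effect of a library such as DicerAQP2Cre+ replicate 3. No pair of replicates agreed within sampling noise. Depth sets the floors and binomial intervals, which cover counting error only, since PCR copies are not independent.

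The members, lists and tests were chosen with earlier results of these data known. Named entries were the members, the 5 entries with the nearest profile to each leading arm, list entries that passed or were most abundant, and the most abundant entry. The joined miR-199 entry, miR-152-3p, miR-155-5p, miR-221-3p, miR-222-3p, miR-223-3p and miR-342-3p fall outside that rule and were chosen after their values were seen. Entries sharing a seed with a member were not looked up. Alternatives covered scaling, tool, trend, pseudocount, filter, block and leaving out each library.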

Additional observations from a re-analysis of the deposited data

How the results depend on the processing

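The 4 tested arms had log2 fold changes above 0 under every setting run that tested them; miR-145a-3p was not tested with a mean filter of 50. miR-145a-5p, called with the main setting, was not called without a trend (1.09, limma adjusted p = 0.0760), and leaving out each library gave 0.90 to 1.31, with limma adjusted p from 0.00152 to 0.106. miR-143-5p was called by DESeq2 (1.29) and ranged from 0.72 to 1.71 when a library was left out, with limma adjusted p from 0.00127 to 0.468. The arm ratios and the neighbouring pair kept their direction and were called under no setting. The ratio of leading arms and the cluster share kept their direction, and their permutation tests could not reach 0.05 under any setting. Against 39 called entries, limma called 62 with equal totals (48 lower, 14 higher), 71 at an adjusted p of 0.1 and 18 with no trend, DESeq2 called 60, and leaving out each library gave 0 to 105. The count of 0 came from limma without control replicate 2, where 43 entries were lower and 40 higher at an unadjusted p under 0.05, and likewise without control replicate 3, where these were 50 and 46. Fewer libraries also leave the test less power. Higher calls were 41.0% of all calls with the deposited size factors, 22.6% with equal totals and 72.0% with equal totals without miR-181a-5p.

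The replicate numbers are shared between genotypes, but same-numbered libraries did not deviate together (correlations of -0.06, 0.01 and 0.06 for numbers 1 to 3). With a replicate block, limma called 32 entries, and the adjusted p of miR-145a-5p was 0.0285. The cause of the changed calls was not tested. Depth limits miR-145a-3p and miR-145b, with at most 10 reads in any library.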
